A study of Drosophila melanogaster with 2 samples.

Results

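The genes described here encode the machinery that starts transcription of messenger RNA, and they were asked for 1 property: whether the zinc finger protein CG11696 was found at their own promoters. They were chosen by symbol as the protein-coding genes beginning with MED, Taf, TfII or Polr2 in the annotation of the fly genome. The rule itself used no measured value, but the genes were chosen with earlier results of these data known. The rule takes names and not roles, so it holds paralogues such as *Taf12L* and the elongation factor *TfIIS* and leaves out subunits with older names, which are described at the end. It found 62 of 13968 protein-coding genes, made up of 25 Mediator genes, 15 TFIID genes, 9 genes of other general factors and 13 genes of polymerase subunits. Binding was measured by chromatin immunoprecipitation and sequencing in transgenic *Drosophila melanogaster* that carry CG11696 fused to enhanced green fluorescent protein (eGFP). An anti-GFP antibody brought down the fusion, so the native protein was not measured, and the labels do not say which promoter drives it. The material was whole embryos of 0 to 24 h, a mixture of cell types and stages of embryogenesis, and its chromatin was sheared by sonication to between 200 and 800 bp. There was 1 group of 2 biological replicates, all of the same genotype, so there is no contrast between conditions and no test of one. The files hold peaks and no read counts, so the depth is unknown.

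RNA polymerase II transcribes protein-coding genes, but it cannot find a promoter by itself. TFIID, built from the TATA-binding protein and its associated factors (TAFs), recognises the core promoter, and TFIIA, TFIIB, TFIIE, TFIIF and TFIIH complete the complex that positions the polymerase and opens the DNA. Mediator is a large complex that carries signals from DNA-bound activators to that assembly. Most of these subunits are needed in nearly every cell of an embryo.

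A gene was counted as bound when a peak summit lay within 500 bp of any of its transcription start sites (TSSs). The main list was the authors' conservative one, whose 3154 peaks passed a threshold on the irreproducible discovery rate (IDR) between the replicates. In that list 10 of the 62 genes (16.1%, 95% Wilson interval 9.0 to 27.2) were bound, beside 10.1% of all protein-coding genes. The bound genes were *MED30*, *MED27*, *MED31*, *MED17* and *MED7* of Mediator, *Taf5* and *Taf4* of TFIID, *TfIIA-L* of the other general factors, and *Polr2B* and *Polr2J* of the polymerase. Each had a single conservative peak in its window. The strongest signal value, the authors' measure of peak height in units of their peak caller, had a median of 122.7 over the 10 bound genes and 120.5 over all 1404 bound protein-coding genes. The 10 peaks ranged from 76.9 to 183.7, which placed them between the 23.9 and the 77.3 percentile of all conservative peaks. At this window of 500 bp the background share lies within the interval of the 62 genes, and the heights of their peaks lay in the middle range of the list.

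**Figure D1:**
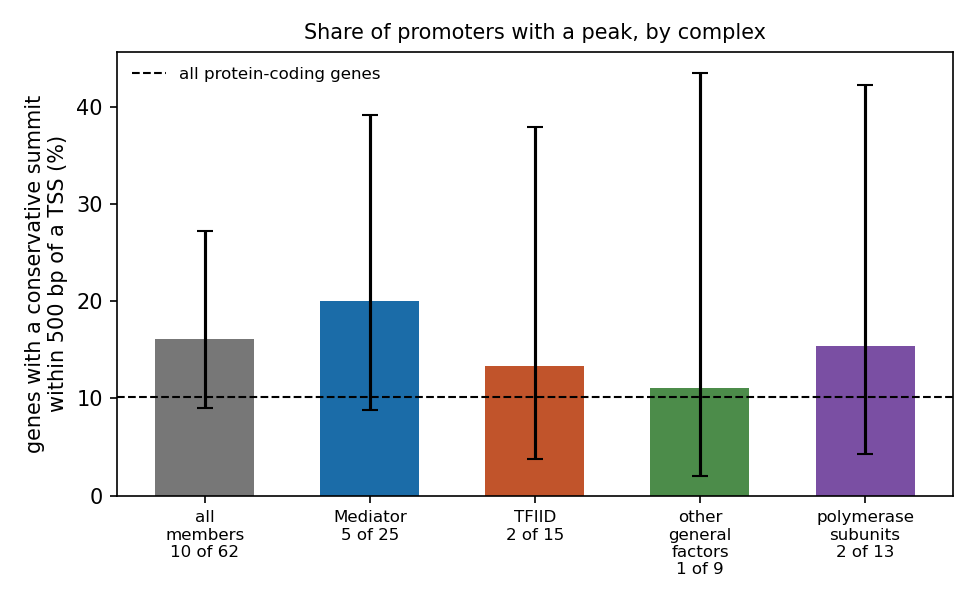
Share of genes (%) with a conservative peak summit within 500 bp of a TSS, for all 62 genes and for each complex, with 95% Wilson intervals as error bars and the share of all protein-coding genes as a dashed line. The dashed line at 10.1% lies inside every interval, from the 5 of 25 Mediator genes to the 1 of 9 genes of other general factors.

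The DNA under 5 of these summits is shown because each stands for a different case: the summit nearest to its gene (MED17), the Mediator gene whose replicate values were closest (MED27), the gene with no other start nearby (Taf4), the gene of a general factor (TfIIA-L) and the most AT-rich of the printed windows (Polr2B). Sequences are the forward strand of the RefSeq copy of Release 6 (dm6), and reach up to 50 bp on each side of a summit. The one at MED17 stops where its first exon begins. Capitals mark any match to the words searched, which are spelled out with the sequence results.
MED17 (chr3R:18188994-18189071): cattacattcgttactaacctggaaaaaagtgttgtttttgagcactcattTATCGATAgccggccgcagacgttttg
MED27 (chr3R:5654931-5655031): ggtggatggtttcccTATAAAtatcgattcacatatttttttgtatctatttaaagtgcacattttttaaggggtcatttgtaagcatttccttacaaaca
Taf4 (chr3L:16113606-16113706): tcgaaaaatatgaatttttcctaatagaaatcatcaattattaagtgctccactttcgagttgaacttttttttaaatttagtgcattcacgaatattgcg
TfIIA-L (chr3R:27253192-27253292): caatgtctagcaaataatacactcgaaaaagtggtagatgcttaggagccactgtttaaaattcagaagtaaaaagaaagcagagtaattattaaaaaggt
Polr2B (chr3R:14125631-14125731): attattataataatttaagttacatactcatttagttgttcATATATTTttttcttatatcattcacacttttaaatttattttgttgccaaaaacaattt

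Mediator had 5 bound genes of 25 (20.0%, interval 8.86 to 39.1). *MED30* had the highest of the 5 peaks (chr3L:654082-654425), with a pooled signal value of 150.8, and 63.4 in replicate 1 and 84.5 in replicate 2 (74.0 ± 14.91, SD, n = 2). *MED27* (chr3R:5654809-5655152) was next at 149.6 pooled, with 78.3 in replicate 1 and 78.9 in replicate 2 (78.6 ± 0.37). The replicates were thus nearly equal at *MED27* and apart at *MED30*, although the pooled peaks differed little. Both summits lay upstream, at −165 bp and −158 bp from the TSS.

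*MED31* and *MED7* encode subunits of the middle module of Mediator, and *MED17* encodes the scaffold of its head module. The *MED31* peak (chr3R:4641606-4641949) had a pooled value of 112.7, with 44.6 in replicate 1 and 68.6 in replicate 2 (56.6 ± 16.95), and its summit was at −185 bp. At *MED17* (chr3R:18188872-18189215) the pooled value was 103.2, with 52.1 and 40.3 in replicates 1 and 2 (46.2 ± 8.33), and the summit was 28 bp upstream of the start. *MED7* (chr3R:10760937-10761280) was the weakest of the 5 at 77.8 pooled, with 42.8 and 33.0 (37.9 ± 6.97), and its summit was at −77 bp. Replicate 1 was the higher at *MED17* and *MED7*, and replicate 2 at the other three Mediator genes. *MED17* passed the threshold in replicate 1 alone and *MED7* in neither replicate alone, so that the list of replicate 2 held 3 bound Mediator genes and the list of replicate 1 held 4.

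TFIID had 2 bound genes of 15 (13.3%, interval 3.74 to 37.9). *Taf5*, a core subunit with WD40 repeats, had the highest peak of all 62 genes (2R, 10879664 to 10880007), with a pooled signal value of 183.7, 80.2 in replicate 1 and 106.7 in replicate 2 (93.5 ± 18.74, n = 2). Its summit lay 163 bp upstream of the TSS. *Taf4*, which encodes a histone-fold subunit, had a pooled value of 105.4 (3L, 16113484 to 16113827), with 55.7 and 49.3 in replicates 1 and 2 (52.5 ± 4.53). Its summit was in an intron, 134 bp upstream of 1 of its 3 starts. Both TFIID genes passed the threshold in each replicate alone.

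Of the other general factors, 1 gene of 9 was bound (11.1%, interval 1.99 to 43.5). This was *TfIIA-L*, which encodes the large precursor subunit of TFIIA, the factor that stabilises the TATA-binding protein on DNA. Its peak (chr3R:27253070-27253413) had a pooled value of 146.9, with 57.1 in replicate 1 and 90.0 in replicate 2 (73.6 ± 23.28). That was the widest spread between replicates among the 10 bound genes. The summit lay in an intron, 188 bp upstream of an internal start, and with the outermost start of each gene alone *TfIIA-L* was not counted and this group had 0 bound genes.

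The polymerase subunits had 2 bound genes of 13 (15.4%, interval 4.33 to 42.2). *Polr2B* encodes the second-largest subunit, which forms the active centre together with the largest one. Its pooled signal value was 132.6 (chr3R:14125509-14125852), with 72.2 and 68.8 in replicates 1 and 2 (70.5 ± 2.41), and the summit was at −110 bp. *Polr2J*, the gene of a small subunit that acts in assembly of the enzyme, had the lowest of the 10 peaks at 76.9 pooled (chr2L:17410376-17410719), with 37.1 and 47.9 (42.5 ± 7.64) and a summit at −142 bp. *Polr2B* was in both replicate lists and *Polr2J* in neither, so that the list of replicate 1 held 1 bound polymerase gene. *Polr2J* also carried the top score of 1000 in the conservative list, but a score of 53 in the optimal ranked list, where it did not pass. The score is a scaled form of the IDR, and 830 was the lowest score in any thresholded list.

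*Polr2H*, the gene of a subunit shared with polymerases I and III, was the reverse case. Its peak had a pooled signal value of 92.0, above those of *Polr2J* and *MED7*, with 27.7 in replicate 1 and 59.3 in replicate 2. It scored 762 between the replicates and so missed the conservative list. It did pass in the optimal list and in the list of replicate 2. The optimal list held 10 of the 62 genes (background 11.7%), having lost *Polr2J* and gained *Polr2H*.

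**Figure D2:**
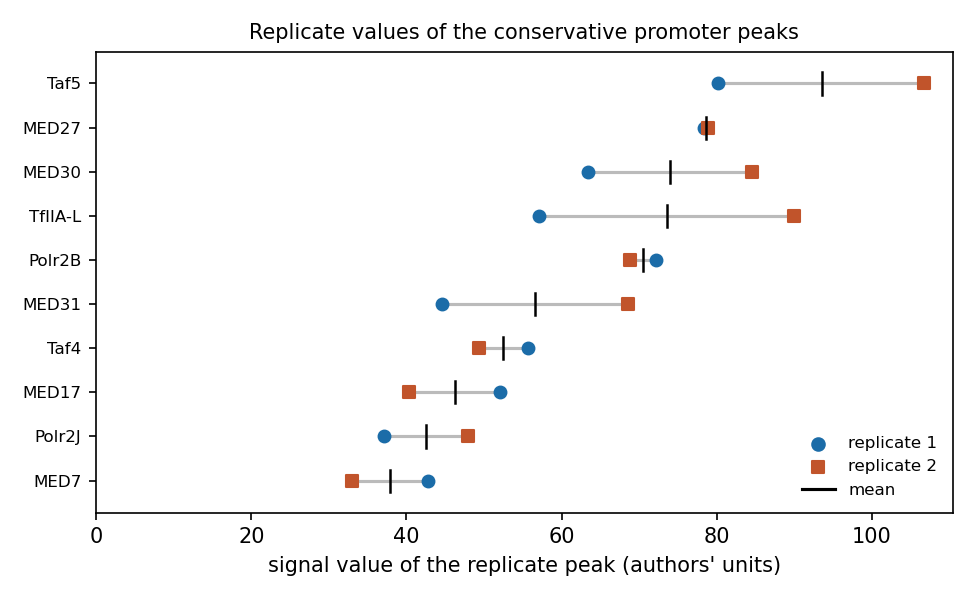
Signal value (authors' units) of each of the 10 bound promoters in replicate 1 and replicate 2, read from the peaks matched to the conservative peak. Replicate 2 was the higher at 6 genes and replicate 1 at 4, with the widest gap at TfIIA-L (57.1 and 90.0) and nearly none at MED27 (78.3 and 78.9).

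Taken on its own, replicate 1 held 8 of the 62 genes (12.9%, background 7.44%) and replicate 2 held 8 as well (background 7.4%). The 7 genes in both were *MED27*, *MED30*, *MED31*, *Taf4*, *Taf5*, *TfIIA-L* and *Polr2B*, which is 11.3% beside 5.77% of all protein-coding genes. *MED17* was the gene found in replicate 1 alone and *Polr2H* the gene found in replicate 2 alone. Across the conservative, optimal and replicate lists, 11 of the 62 genes were bound at least once (17.7%, background 12.7%).

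The ranked list, which keeps peaks whether or not they passed, had a summit in the window of 44 of the 62 genes (71.0%, background 64.7%). Their strongest signal value had a median of 39.1, beside 35.0 over all protein-coding genes with a ranked summit. Of these, 34 had a ranked summit and no conservative one, with values from 5.1 to 92.0 and a median of 35.2, beside 31.6 over 7635 genes in the same state. By complex, a ranked summit was found at 16 of 25 Mediator genes (median 41.0), 12 of 15 TFIID genes (29.7), 5 of 9 genes of other general factors (28.7) and 11 of 13 polymerase genes (35.6). The medians of TFIID and of the other general factors lay below that of all genes and that of Mediator above it. The polymerase median was close to it (35.6 beside 35.0). These differences were not tested. The optimal ranked list, which is longer, reached 52 of the 62 genes (83.9%, background 80.2%), and the ranked lists of replicates 1 and 2 reached 37 (59.7%, background 54.7%) and 45 (72.6%, background 71.3%). In the conservative ranked list no summit was found at 18 genes, 9 of Mediator, 3 of TFIID, 4 of the other general factors and 2 of the polymerase.

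**Figure D3:**
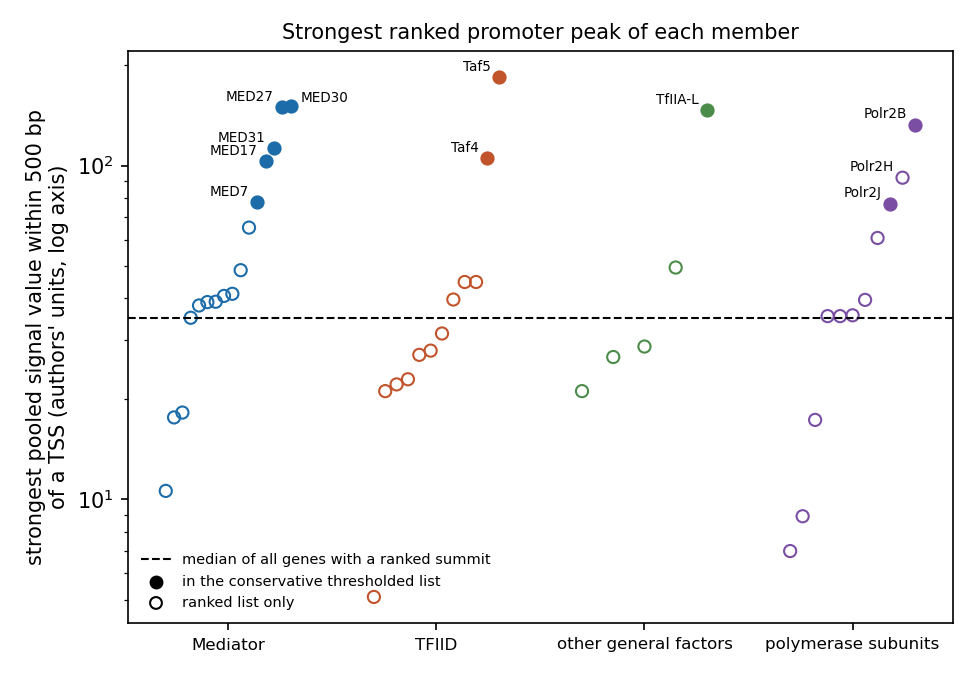
Strongest pooled signal value (authors' units, log axis) within 500 bp of a TSS for each of the 44 genes with a ranked summit, by complex, with filled points for genes in the conservative list. Filled points run from 76.9 at Polr2J to 183.7 at Taf5, and the dashed line marks the median of 35.0 over all protein-coding genes with a ranked summit.

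Among the genes with a ranked summit alone, *MED16*, which encodes a tail subunit of Mediator, stood highest in its complex with a pooled value of 65.2, and 35.6 and 24.6 in replicates 1 and 2. *MED25* followed at 48.6, with 18.4 and 42.5, and *MED4*, of the middle module, at 41.3, with 29.4 and 14.5. The replicates thus differed by over 10 units at each of these genes, and in both directions. In TFIID, the paralogues *Taf10* and *Taf10b* start 45 bp apart on opposite strands and shared 1 peak of 44.8, which was matched in replicate 2 alone (21.3). *Taf9*, a histone-fold subunit, had 39.7, with 20.7 and 21.2.

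*TfIIA-S*, the gene of the small TFIIA subunit and partner of *TfIIA-L*, had a ranked peak of 49.5 at +42 bp, with 28.7 and 25.5 in replicates 1 and 2, and did not pass (score 509). *TfIIEbeta*, for a subunit of TFIIE, had 28.7 with 17.9 and 7.4. *TfIIS*, whose product restarts stalled polymerase, had 26.7 with a match in replicate 1 alone (15.2). *Polr2A*, the gene of the largest and catalytic subunit, had 60.7 at +43 bp with 32.0 and 30.0, and its score of 740 fell short of the threshold. The pair of subunits that make up the active centre thus fell on either side of it. *Polr2M* had 39.6, with 11.3 and 18.7.

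All 10 conservative summits lay upstream of the TSS they were assigned to, between −188 and −28 bp, with a median of −150.0 bp. Over all bound protein-coding genes 1172 of 1404 summits (83.5%) were upstream, with a median of −134.5 bp. In the ranked list 61.4% of the 44 summits were upstream, beside 55.9% over all genes.

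The promoters were shared with other genes in most cases. Another protein-coding TSS lay within 500 bp of a start of 38 of the 62 genes (61.3%), beside 30.8% of all protein-coding genes. Of those 38 genes 9 were bound (23.7%), beside 17.3% of all genes with such a neighbour. Of the 24 genes with none, *Taf4* was bound (4.17%), beside 6.8% of all such genes. The bound share was above its background among genes with a close neighbour and below it among the others, on counts of 9 and 1 bound genes.

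Each of the 9 bound genes with a close neighbour had one arranged head to head with it, their starts 125 to 365 bp apart, and the summit lay between both starts in 8. The exception was *MED31*, whose summit lay 60 bp from a start of *CG9775*, inside an intron of that gene, and *MED31* also shares its own start with *slx1*, which is annotated from the same base on the same strand. The other neighbours were *elm* at *MED27* (start 120 bp from the summit), *Rev1*, for a translesion DNA polymerase, at *MED30* (109 bp), *CG12321* at *MED17* (337 bp) and *Cap-H2*, for a condensin subunit, at *MED7* (201 bp). At *Taf5* the neighbour was *Pex6*, for a peroxisome assembly factor (138 bp), at *TfIIA-L* it was *pll*, the kinase of the Toll pathway (60 bp), at *Polr2B* *140up* (133 bp) and at *Polr2J* *CG15141* (93 bp). The summit was nearer to the start of the other gene at 6 of the 10 promoters and nearer to the transcription gene at 4. A summit between 2 such starts cannot be given to either gene from these lists.

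**Figure D4:**
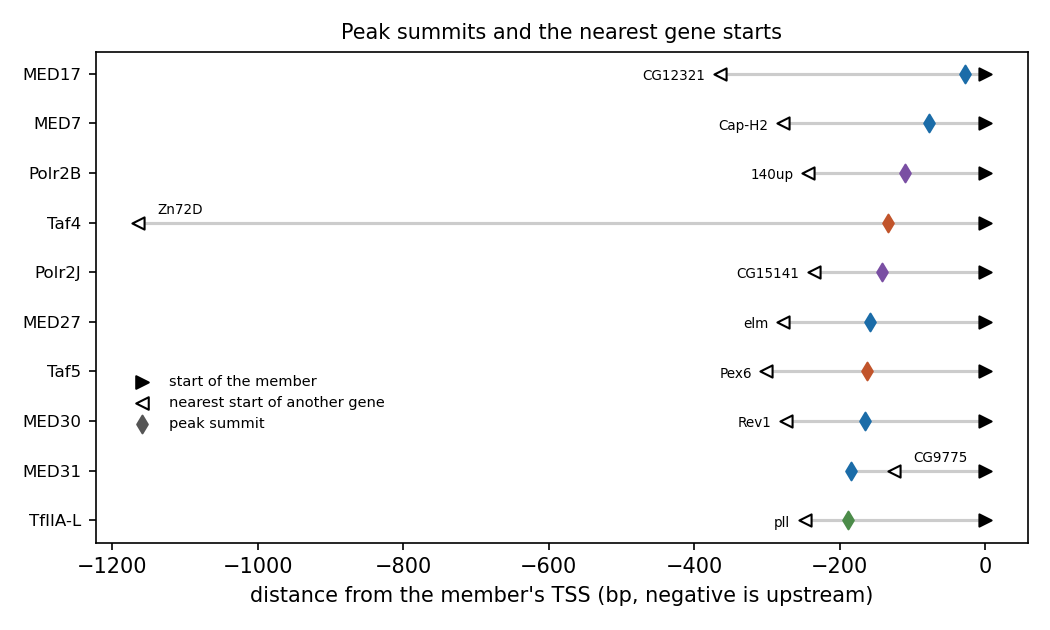
Distance (bp, negative is upstream) of the peak summit and of the start of another protein-coding gene nearest to that summit from the TSS of each of the 10 bound genes. The summit sits between the starts at 8 head-to-head promoters, beyond the CG9775 start at MED31, and 134 bp upstream of Taf4, whose neighbour Zn72D starts 1164 bp away.

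A second conservative peak near *MED31* fell outside its window. It covered 3R, 4640905 to 4641248, with a summit at −886 bp, 1 bp from another start of *CG9775*, a pooled signal value of 108.8 and 39.7 and 77.9 in replicates 1 and 2 (58.8 ± 26.99). No other conservative summit lay outside the window and within 1000 bp of a start of these genes.

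Base composition at the summits differed from that of the flanking DNA outside the peaks. The 101 bp centred on the summit held between 15.8% and 39.6% G and C, with a median of 27.2%, beside a median of 51.5% in windows of the same width centred 300 bp to either side, beyond the ends of the 344 bp peaks. The summit window was lower in GC than the mean of its flanks at 10 of 10 promoters, although at *MED17* the lower flank was no richer than the summit. The widest contrasts between summit and flank were at *Taf5* (15.8% and 45.5%) and *MED30* (25.7% and 55.4%), and the narrowest was at *MED17* (39.6% and 50%). Over 1198 conservative summits within 500 bp of a TSS, the median was 33.7% at the summit and 43.1% in the flanks, and the summit was the lower at 70.8%.

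**Figure D5:**
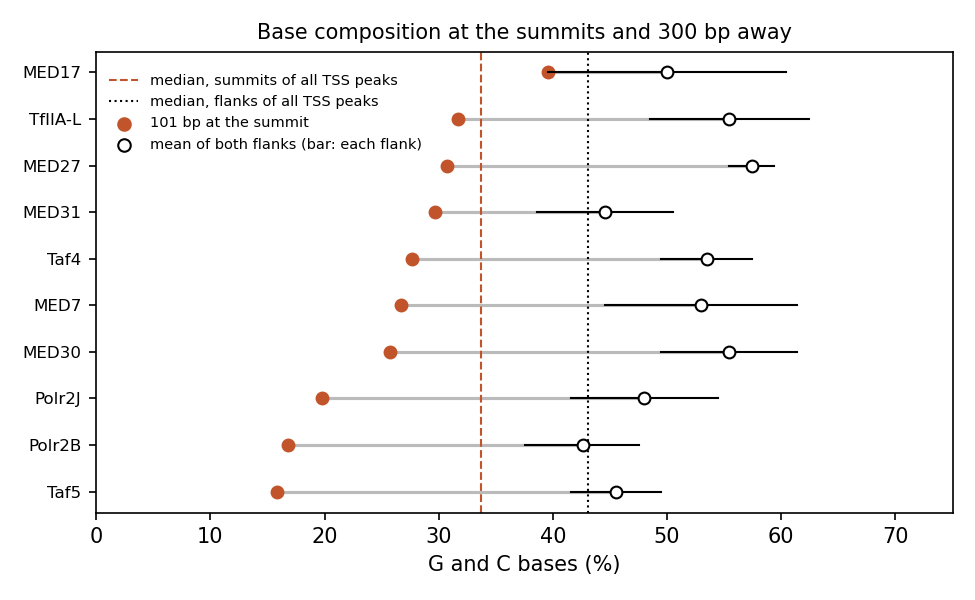
GC content (%) in the 101 bp at the summit and in equally wide windows 300 bp away (open points, the mean of both flanks, with bars reaching to each) for the 10 bound promoters, beside the medians of all conservative summits near a TSS. Every one of the 10 genes was lower at the summit than in the mean of the flanks, from 15.8% and 45.5% at Taf5 to 39.6% and 50% at MED17.

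In the same 101 bp windows, 10 words were searched on both strands. They were TATCGATA (the DNA replication-related element, DRE), GGTCACAC (from core promoter Motif 1), the E-box CAGCTG, another E-box with the letters CACGTG, the TATA box TATAAA, the initiator word TCAGT, the GA-repeat word GAGAG and 3 words of 8 letters that were more frequent at summits than in flanks over the 3133 other conservative peaks, TATTTTAA, AAAATATT and AAATATAT. The last of these can overlap each other and TATAAA. TATCGATA was found at *MED17*, where it begins 1 bp from the summit in the sequence printed above, and in no other of the 10 windows, beside 1.59% of all conservative TSS windows. The word TATAAA, searched at any distance from the start, was found at *MED27* and *Taf5*, beside 20.1% of all such windows. The initiator word, also searched at any distance from the start, was found at *MED7* (beside 15.9%). There it lay 24 bp beyond the summit, farther upstream, and not at the start of the gene. TATTTTAA was found at *Taf5* (beside 6.09%) and AAATATAT at *Polr2B* (beside 5.76%), where it reads on the reverse strand in the sequence above. The Motif 1 word (0.751% of all TSS windows), the E-box CAGCTG (6.18%), the other E-box (1.09%), the GA-repeat word (12%) and AAAATATT (6.18%) were in none of the 10 windows. *MED30*, *MED31*, *Taf4*, *TfIIA-L* and *Polr2J* held none of the 10 words.

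Subunits of Mediator and of the initiation factors under other names, together with genes of pausing and elongation, of Integrator and of polymerases I and III, made up lists of 66 genes, of which 8 were bound (12.1%, background 10.1%). Of 4 Mediator genes with older names, *skd* and *Cdk8*, both of the kinase module, were bound, though neither was in a replicate's thresholded list. *Cdk8* had a pooled value of 66.2, with 36.7 and 33.1 in replicates 1 and 2, and *skd* had 77.1, with 34.3 and 43.7, at a summit 2 bp from a start of its neighbour *Pdss2*. Of 10 TFIIH genes 1 was bound, *Ssl1*, at a pooled value of 547.5 with 271.8 and 278.1 (275.0 ± 4.44), higher than any of the 62 genes and 92 bp from a start of the chromosome protein gene *Chro*.

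Of 14 genes of pausing and elongation 2 were bound, both of the negative elongation factor: *TH1* at 207.6, with 72.5 and 141.2 in replicates 1 and 2, and *Nelf-E* at 176.2, with 100.4 and 78.6. Of 14 Integrator genes *IntS6* (141.6, with 60.2 and 79.7) and *IntS9* (121.8, with 51.9 and 83.7) were bound. Starts of other genes lay 152 bp from the *TH1* summit (*mei-41*), 82 bp from *Nelf-E*'s (*RpL14*) and 134 bp from *IntS9*'s (*CG43295*). The bound gene among 10 of polymerase III was *Polr3E* (131.1, with 41.1 and 81.3). Its summit, at -293 bp, was nearer to a start of *CG10584* (172 bp), and it passed in replicate 2 alone of the replicate lists. None of 7 polymerase I genes, 3 genes of the TATA-binding protein family and 4 TAFs of the testis was bound in the conservative list. *Tbp* passed in the list of replicate 1 (49.2, at -499 bp) and *Polr1D* in the optimal list (65.5). *Xpd*, *mrn* and *dre4* of the other lists also passed in the optimal list and not in the conservative one. The share over these lists (12.1%) lay near that of all protein-coding genes (10.1%). Over the 62 genes it was 16.1%, with an interval of 9.0 to 27.2 that holds the share of all genes at 500 bp. At a window of 250 bp the same 10 genes were bound and the share of all genes, 7.65%, lay below that interval. No test was made of either difference.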

How the data were processed

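Peaks were called by the authors on dm6 from the alignments of each replicate or of both and of a control (not analysed here), per the deposited descriptions. Which aligner and caller they ran was not given in the sources used here. The deposited signal value is peak strength in units of the authors' caller. The deposited score (0 to 1000, capped) follows the IDR, which the authors deposited as −log10; the lowest score in the thresholded lists, 830, equals an IDR of 0.01, which is not a p-value. Replicate values, given as mean ± SD (n = 2), are the peaks of each replicate's own ranked list that the conservative ranked list matches to a pooled peak, found there by exact coordinates and signal value.

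Genes and TSSs came from Ensembl release 115, sequence from the RefSeq copy of Release 6, and coordinates are 1-based. Peaks outside the 7 chromosomes used were left out (11 of the 3154 conservative peaks). Assignment of summits to genes was tested on simulated data. The computation used Python 3.11.15, numpy 2.4.6, pandas 2.3.3 and scipy 1.17.1. With 1 group no test was run. Counts stand beside those over all protein-coding genes, and 95% Wilson intervals cover the counting of genes, not depth. Whether the replicates were separate collections is known only from their label as biological replicates.

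Genes named were those bound in any thresholded list, the 3 highest per complex among genes with a ranked but no conservative summit, those with a conservative summit beyond 500 and within 1000 bp, bound genes of the related lists and the nearest neighbour of each summit. *MED15* and the second peak near *TfIIA-S* were chosen after their values were seen. The genes, lists and words were chosen with earlier results of these data known. Alternatives changed the window, list, replicates, peak strength, score, TSS set and overlap.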

Additional observations from a re-analysis of the deposited data

How the results depend on the processing

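The count stayed at 10 bound genes while the share of all protein-coding genes moved from 10.1% to 7.65% with a window of 250 bp, 12.6% with 1000 bp, 11% with any base of the peak in the window and 11.7% with the optimal list. The interval for 10 of 62 genes, 9.0 to 27.2, does not hold the 7.65% at 250 bp but holds the other shares just given. Requiring a score of 1000 left 9, without *MED7* (8.56% of all genes). The stronger 50% of peaks left 6, without *MED17*, *MED7*, *Polr2J* and *Taf4*, with 3 in Mediator, 1 in TFIID and 1 in the polymerase, while the share of all protein-coding genes became 5.88%. With the outermost gene start alone 9 genes were bound (8.4% of all genes), and the other general factors had 0 bound genes. With 1 replicate left out, Mediator had 3 to 4 bound genes, the polymerase subunits 1 to 2, and the median ranked signal value was 19.2 to 26.6, read from replicate lists that are not on the scale of the pooled list. That median was 45 with a window of 250 bp. The number bound in both replicates was 7 also with a reciprocal overlap of 50%. The cause of these shifts was not tested beyond what each setting changes by construction. No paired analysis was possible because there is 1 group. The depth is unknown, so an absent peak does not show an unbound promoter.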

Other observations

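The conservative thresholded list lacks 84 peaks whose score in its ranked counterpart is at or above the threshold, and 2 of them lie within 1000 bp of a start of these genes. The first is near *MED15*, a tail subunit of Mediator, at chr2L:472402-472530, with its summit at −560 bp. Its pooled signal value of 250 is above that of all 10 bound promoters, with 113.7 in replicate 1 and 114.1 in replicate 2 (113.9 ± 0.28, SD, n = 2). It overlaps no peak of the conservative or optimal thresholded lists. Its summit lies outside the window of 500 bp, although the near end of the peak reaches into it. Because genes were counted by summits in the conservative list, *MED15* counts as unbound. The second is near *TfIIA-S*, at chr3R:23889916-23890259, at +972 bp, with a pooled value of 78.0, and 35.4 and 31.9 in replicates 1 and 2 (33.6 ± 2.47). It lies beyond the end of that gene, in intergenic DNA. The labels and headers do not say why the list lacks such peaks.

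In the promoters themselves, from 250 bp before to 50 bp after the start, 2 core promoter words stood above their share in all 13968 protein-coding promoters. GGTCACAC was in 16 of 62 promoters (25.8%, beside 8.7%) and TATCGATA in 12 (19.4%, beside 10.2%), both strands counted. The initiator word TCAGT was in 21 (33.9%, beside 58.5%), the GA-repeat word GAGAG in 14 (22.6%, beside 36.3%) and the E-box CAGCTG in 8 (12.9%, beside 22.3%), each below its share in all promoters. TATAAA was in 32 (51.6%, beside 51.3%), and the other E-box, with the letters CACGTG, in 3 (4.84%, beside 5.33%). Also above their shares were the 3 words of 8 letters taken from other summits. TATTTTAA was in 12 (19.4%, beside 11.7%), AAAATATT in 14 (22.6%, beside 14.1%) and AAATATAT in 13 (21.0%, beside 13.9%). GGTCACAC was in 2 of the 10 bound promoters and in 14 of the 52 others (26.9%), and TATCGATA in 2 and 10 (19.2%). The initiator word was in 1 and 20 (38.5%), the GA-repeat word in 1 and 13 (25%) and the first E-box in 1 and 7 (13.5%). The other E-box was in 2 and 1 (1.92%), and TATAAA in 6 and 26. TATTTTAA was in 2 and 10 (19.2%), AAAATATT in 3 and 11 (21.2%) and AAATATAT in 1 and 12 (23.1%). No test was made of these shares.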
